A study of Homo sapiens with 12 samples.

Results

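LOC101929380, ENPP1 and FAR2 are 3 of the 26475 gene symbols counted by RNA-seq in MIAPaCa2 cells, a pancreatic ductal adenocarcinoma (PDAC) line, and in a population of the same line made resistant to sodium oxamate, an inhibitor of lactate dehydrogenase A. They were chosen by their levels in these libraries, because their mRNA was near absent or low in parental cells and raised in oxamate-resistant cells, so the values that separate the lines are given for them as a description and without a test. The rule names the genes and sets no numeric threshold. Each of the 4 groups held 3 libraries: parental cells without treatment (vehicle), parental cells with oxamate, resistant cells without treatment (vehicle) and resistant cells with oxamate. All were grown in DMEM with fetal bovine serum. The resistant cells came from continuous culture of MIAPaCa2 in oxamate, so they are a single selected population of a single cell line. The sources used here do not say that the replicates came from separate cultures, and the p-values measure the spread between these libraries, which may be technical.

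ENPP1 is a transmembrane enzyme with its active site outside the cell, where it splits ATP into AMP and pyrophosphate and degrades cGAMP, the messenger that activates STING. It is also known as an inhibitor of the insulin receptor and as a brake on mineralization. FAR2 is a peroxisomal fatty acyl-CoA reductase that turns acyl-CoA into fatty alcohols, the precursors of ether lipids and wax esters. LOC101929380 is annotated as a long non-coding RNA, and no function is assigned to it here.

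The libraries held between 46698729 and 114222169 expected counts, and every parental library was deeper than every resistant library. Levels are in CPM, the counts scaled to a common total after TMM normalization, which keeps a few abundant genes from shifting the rest. CPM is not divided by transcript length, so levels are compared within a gene and not between genes. The floor of 3 counts came to 0.0283 to 0.0581 CPM, depending on the library, and reflects counting error alone, as do the intervals. The keratins of the line were abundant but lower in resistant cells, KRT8 at 1420 to 1600 CPM in parental and 671 to 759 CPM in resistant libraries, and KRT18, KRT19 and VIM did not overlap between the lines either, with the resistant libraries below. By contrast the epithelial gene EPCAM had at most 3 counts and CDKN2A, which is deleted in MIAPaCa2, had 0. The leukocyte gene PTPRC, the endothelial gene PECAM1 and the fibroblast gene DCN had at most 3, 11 and 2 counts, and COL1A1 lay between 0.901 and 2.03 CPM. The third library of oxamate-treated parental cells and the third of vehicle-treated resistant cells stood apart from their groups in the nuclear RNA MALAT1, at 596 and 597 CPM against 281 to 289 and 244 to 273 CPM in the other libraries of those groups. All 3 oxamate-treated resistant libraries were also high, at 577 to 742 CPM for MALAT1 and 458 to 648 CPM for NEAT1, another nuclear RNA, against 183 to 199 and 128 to 155 CPM in vehicle-treated parental cells. Fewer expressing cells and less RNA per cell cannot be told apart in these bulk samples.

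LOC101929380 was the member with the widest separation between the lines. It lies on chromosome 5 (RefSeq, GRCh38.p14, chr5:87120148-87248021), spans 127.9 kb with 1 transcript, and overlaps the long non-coding genes MIR4280HG and LINC01949, which are not in the count table. The library kit does not keep strand, so reads from any transcribed stretch they share with LOC101929380 cannot be told apart from its own. In vehicle-treated parental cells its level was 0.104, 0.0913 and 0.129 CPM, from 11, 9 and 8 counts. In oxamate-treated parental cells it was 0.107, 0.114 and 0.174 CPM, from 6, 6 and 12 counts. These 6 libraries lay above the floor but rested on a handful of reads each, and the highest value came from the third oxamate-treated library, which was also the one high in MALAT1. In vehicle-treated resistant cells the level was 17.8, 18.2 and 17.2 CPM, and in oxamate-treated resistant cells 15.7, 15.4 and 14.2 CPM, from 798 to 1084 counts. The lines were far apart, with the lowest resistant library 81.8 times the highest parental library. The fitted fold change of resistant over parental cells was 166 with vehicle (log2 7.37, standard error 0.28) and 110 with oxamate (log2 6.79, standard error 0.30), in rank the number 5 and the number 22 among the 14582 genes tested.

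**Figure D1:**
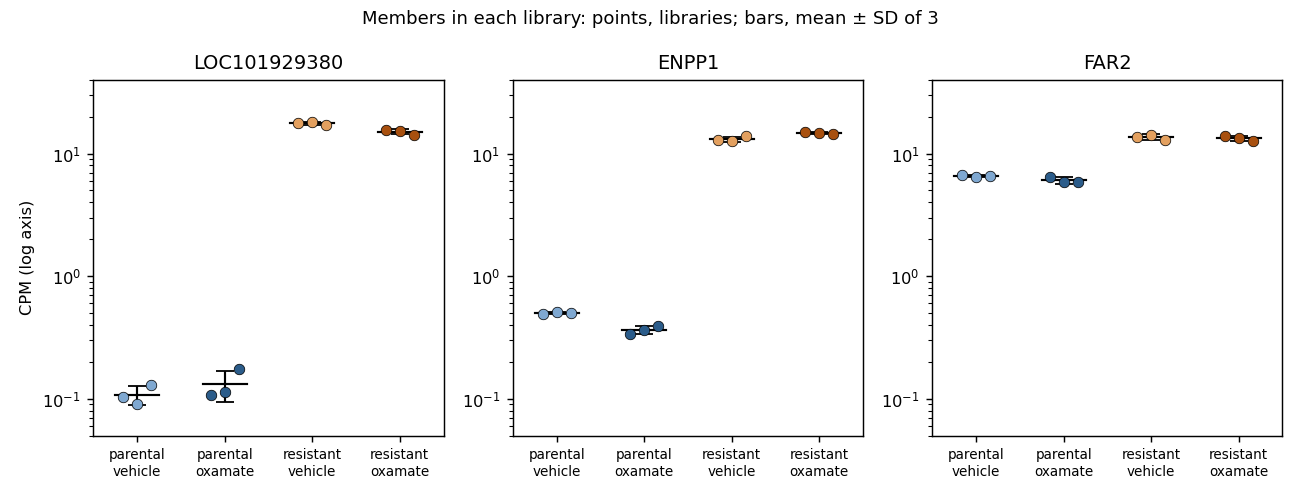
CPM on a log axis for LOC101929380, ENPP1 and FAR2 in the 12 libraries; points are libraries and bars the mean ± SD of 3. LOC101929380 and ENPP1 stay at or below 0.507 CPM in the parental libraries and reach at least 12.7 CPM in the resistant libraries, whereas FAR2 goes from 5.82 to 6.7 CPM up to 12.6 to 14.3 CPM.

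ENPP1 showed the same kind of separation from a slightly higher base. The gene lies on the plus strand of chromosome 6 (chr6:131808020-131895155). Its level was 0.49, 0.507 and 0.499 CPM in vehicle-treated and 0.34, 0.362 and 0.391 CPM in oxamate-treated parental cells, from 19 to 52 counts. Both parental groups were low, and the oxamate-treated libraries all lay below the vehicle-treated ones. In resistant cells the level was 12.8, 12.7 and 13.8 CPM with vehicle and 15, 14.6 and 14.4 CPM with oxamate, from 736 to 857 counts. Here the order was turned around, with each oxamate-treated library above each vehicle-treated one. The lowest resistant library was 25 times the highest parental library. The fitted fold change between the lines was 26.2 with vehicle (log2 4.71, standard error 0.13) and 39.8 with oxamate (log2 5.32, standard error 0.18), number 36 and number 34 of the genes tested. The 250 bases before the annotated start of ENPP1 (RefSeq, GRCh38.p14, chr6:131807770-131808019, plus strand) are shown because ENPP1 is the member whose responses to oxamate differed between the lines. Capitals mark matches on either strand to the GC box (GGGCGG) and to the core of the hypoxia response element (ACGTG, which is also contained in the MYC E-box CACGTG).
ENPP1 promoter: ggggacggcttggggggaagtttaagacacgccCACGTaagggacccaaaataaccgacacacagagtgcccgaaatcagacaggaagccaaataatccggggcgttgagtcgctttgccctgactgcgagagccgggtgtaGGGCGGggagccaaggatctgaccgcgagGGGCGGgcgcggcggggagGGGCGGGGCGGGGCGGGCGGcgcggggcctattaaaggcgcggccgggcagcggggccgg
The window held 6 overlapping or separate GC boxes and 1 ACGTG, and 68.8% of its bases were G or C. Of 35116 promoter windows of this length in the RefSeq table, 42.6% held a GC box and 18.5% an ACGTG, and the median GC content was 58.0%. The other motifs searched were the TATA box (TATAAA), the CCAAT box, the full E-box, the AP-1 site (TGANTCA), the ATF4 element (TGATGNAA) and the core of the antioxidant response element (TGACNNNGC), of which the last 4 occur in 6.34%, 6.57%, 3.14% and 10.9% of all windows, and none of the 6 was in this window.

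FAR2 went against the label of a gene that is switched on, because it was well expressed before resistance. It lies on the plus strand of chromosome 12 (chr12:29149278-29335616) with 5 annotated transcripts. In parental cells its level was 6.7, 6.41 and 6.57 CPM with vehicle and 6.48, 5.88 and 5.82 CPM with oxamate. In resistant cells it was 13.7, 14.3 and 13.0 CPM with vehicle and 14, 13.4 and 12.6 CPM with oxamate. The lines did not overlap, but the lowest resistant library was only 1.87 times the highest parental one, while within each line the treated and untreated libraries overlapped. The fold change was 2.08 with vehicle (log2 1.06, standard error 0.06) and 2.2 with oxamate (log2 1.14, standard error 0.06), number 1171 and number 1544 of the genes tested. The expected counts of FAR2 were not whole numbers in any of the 12 libraries, since RSEM divides reads that match several transcripts, and FAR2 has near-identical pseudogene copies. Of these, FAR2P1 had at most 1.09 counts and FAR2P2 at most 8.0 counts in any library, against 308.64 to 852.79 for FAR2. FAR2P3, FAR2P4 and the overlapping FAR2-AS1 are not in the table, and the library kit does not keep strand, so reads of FAR2 and FAR2-AS1 cannot be told apart. All counts of LOC101929380 and ENPP1 were whole. The genes that overlap them are not in the table, so whole counts do not show that every read was theirs. For ENPP1 these are the pseudogenes SELENOKP2, RN7SKP245 and LOC100421775. The 2 annotated starts of FAR2 are shown because the gene-level counts cannot say which of them was used. The first lies at chr12:29149028-29149277 and the second at chr12:29223416-29223665, both on the plus strand of GRCh38.p14 (RefSeq), with GC boxes in capitals.
FAR2 promoter, start 1: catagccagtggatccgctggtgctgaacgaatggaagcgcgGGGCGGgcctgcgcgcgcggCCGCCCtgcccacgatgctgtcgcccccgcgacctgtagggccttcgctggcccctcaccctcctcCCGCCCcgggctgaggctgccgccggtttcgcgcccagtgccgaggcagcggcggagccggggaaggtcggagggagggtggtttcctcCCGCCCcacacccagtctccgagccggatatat
FAR2 promoter, start 2: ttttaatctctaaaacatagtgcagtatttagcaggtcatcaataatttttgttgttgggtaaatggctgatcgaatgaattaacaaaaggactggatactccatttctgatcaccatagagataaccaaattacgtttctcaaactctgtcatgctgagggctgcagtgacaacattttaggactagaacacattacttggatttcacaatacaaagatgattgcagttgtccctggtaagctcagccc
The windows differed in composition, with a GC content of 72.8% and 4 GC boxes at start 1 against 37.6% and no match to any of the 8 motifs at start 2.

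Over all genes, 5 symbols had under 1 CPM in all 6 parental and over 10 CPM in all 6 resistant libraries, limits set after the values were seen. LOC101929380 and ENPP1 were among them, and the others were FN1, which encodes fibronectin, GNG2, a G protein gamma subunit, and SEPP1, the plasma selenoprotein P. FN1 lay between 0.273 and 0.507 CPM in parental and 18.3 and 22.1 CPM in resistant libraries. No symbol, 0 of 26475, met the same limits in the opposite direction. The limits were placed by the levels of the members in resistant and parental cells, so nothing was read from this contrast.

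**Figure D2:**
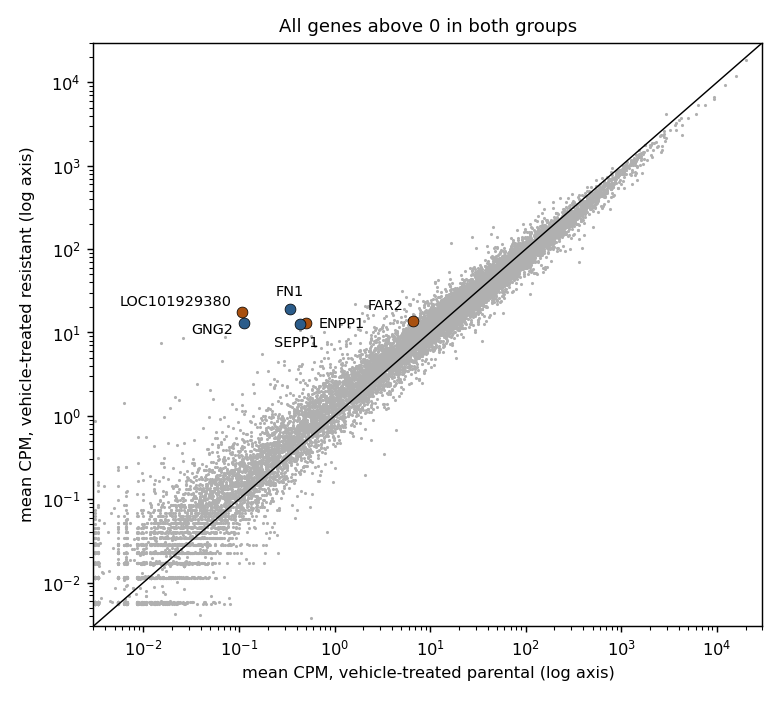
Mean CPM of vehicle-treated resistant cells against vehicle-treated parental cells, both on log axes, for all genes above 0 in both; the line marks equal levels. LOC101929380, ENPP1, FN1, GNG2 and SEPP1 lie far above the line, and FAR2 just above it.

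The difference between the lines was called for all 3 members in both treatments, as their choice on these values fixes. Over all genes tested, 38.4% were called higher and 37.3% lower in vehicle-treated resistant cells at an adjusted p under 0.05 (edgeR, quasi-likelihood F-test, adjusted by Benjamini and Hochberg over all genes), 5602 and 5436 genes. With oxamate the shares were 40.6% higher and 39.7% lower, 5923 and 5785 genes. At the study's threshold, a fold change above 1.5 at p under 0.05 before adjustment, 17.2% were higher and 6.14% lower with vehicle and 22.9% higher and 11.4% lower with oxamate. The balance of the adjusted calls depended on TMM: with library size alone it was 8540 higher and 2769 lower with vehicle, with the median gene at 0.244 on the log2 scale against 0.025 after TMM, and 9133 and 2819 with oxamate, with the median gene at 0.339 against 0.015.

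What the choice did not use was the response to oxamate within each line, which was tested. In parental cells none of the members was called by edgeR, 0 of 3 against 58.7% of all genes tested. LOC101929380 passed the filter on low counts through the resistant libraries alone, so nothing was read from this count. DESeq2 also called 0 of 3, and ENPP1 alone had an unadjusted p under 0.05 with either tool (0.0385 with edgeR, 0.0494 with DESeq2). ENPP1 had 0.499 ± 0.00847 CPM with vehicle and 0.364 ± 0.0258 CPM with oxamate (SD, n = 3 each, no overlap), a log2 change of -0.44 with a standard error of 0.22 that missed the threshold (adjusted p = 0.0637, edgeR). LOC101929380 had a log2 change of 0.36 with a standard error of 0.40 (adjusted p = 0.442), and at 6 to 12 counts per library a change of that size was not detectable. FAR2 had a log2 change of -0.12 with a standard error of 0.06 (adjusted p = 0.125).

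In resistant cells LOC101929380 and ENPP1 moved in opposite directions, each by a small amount, so that 2 of 3 members were called against 21.5% of all genes tested. LOC101929380 fell from 17.7 ± 0.514 CPM with vehicle to 15.1 ± 0.798 CPM (SD, n = 3 each). The log2 change was -0.23 with a standard error of 0.06 (adjusted p = 0.00876, edgeR), and the groups did not overlap. Without the third oxamate-treated library the change was -0.19 and no longer called (adjusted p = 0.0583). ENPP1 rose from 13.1 ± 0.583 to 14.6 ± 0.321 CPM, a log2 change of 0.16 with a standard error of 0.05 (adjusted p = 0.033). This call was lost in 7 of 14 alternatives, with DESeq2, with no filter on low counts and without any of 5 of the 6 libraries compared, where the adjusted p ran up to 0.151. FAR2 went from 13.7 ± 0.652 to 13.3 ± 0.731 CPM, a log2 change of -0.04 with a standard error of 0.06 (adjusted p = 0.644). MALAT1 also differed between these groups, at 244 to 597 CPM with vehicle and 577 to 742 CPM with oxamate, and its part in the result was not tested. Without both libraries that stood apart in it, the change was -0.25 for LOC101929380 and 0.20 for ENPP1, both called (adjusted p = 0.00218 and 0.00913, edgeR). Among resistant libraries this left MALAT1 at 244 to 273 CPM with vehicle against 577 to 742 CPM with oxamate, without overlap. These calls therefore cannot separate the response to oxamate from the difference in MALAT1.

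The responses of the lines differed for ENPP1 and were not shown to differ for the others, 1 of 3 members against 44.2% of all genes tested. For ENPP1 the response of resistant cells exceeded that of parental cells by 0.60 on the log2 scale, with a standard error of 0.22 (adjusted p = 0.0155, edgeR). It kept its direction in all 19 alternatives and lost the call in 1, without the first oxamate-treated parental library (adjusted p = 0.0531). Left out together, both libraries high in MALAT1 made it 0.70 (adjusted p = 0.0168). MALAT1 still differed with treatment in both lines after that, and its part was not tested. For LOC101929380 the difference was -0.59 with a standard error of 0.40 (adjusted p = 0.228), a test limited by its few parental counts. For FAR2 it was 0.08 with a standard error of 0.08 (adjusted p = 0.494). This test uses the same 12 libraries as the comparisons above.

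**Figure D3:**
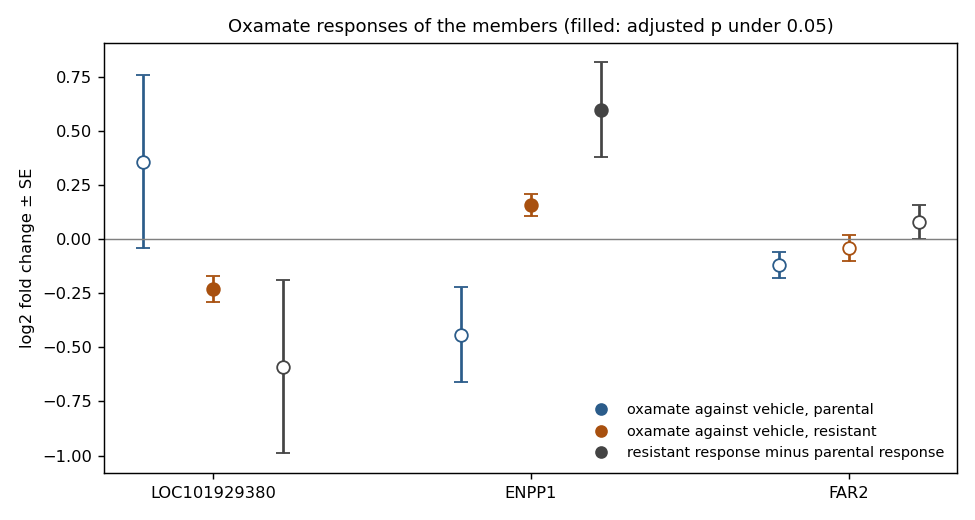
Log2 fold change ± standard error of oxamate over vehicle in parental and in resistant cells, and the difference between these responses, for each member; filled points have an adjusted p under 0.05. ENPP1 lies at -0.44 in parental and 0.16 in resistant cells, and LOC101929380 at 0.36 and -0.23.

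The 4 groups were also ordered by their mean level. For ENPP1 the order was oxamate-treated parental, vehicle-treated parental, vehicle-treated resistant and oxamate-treated resistant cells, and neighbouring groups did not overlap at any step. For LOC101929380 the parental groups overlapped and came first, followed by oxamate-treated and then vehicle-treated resistant cells, which did not overlap. For FAR2 the order was oxamate-treated parental, vehicle-treated parental, oxamate-treated resistant and vehicle-treated resistant cells, and the groups within each line overlapped.

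The genes around the members were described next, the 5 nearest rows on each side by RefSeq position. Of these 30 neighbours 13 had too few counts to be tested, and of the 17 tested 10 were called higher and 5 lower in vehicle-treated resistant cells, where 38.4% of all genes tested were higher and 37.3% lower. At the study's threshold 6 were higher and 0 lower with vehicle (17.2% and 6.14% of all genes), and 8 higher and 0 lower with oxamate (22.9% and 11.4%). These genes were not part of the choice of members, but EDIL3, ENPP3 and PTHLH passed the filter on low counts through the resistant libraries and had to differ, so nothing was read from how many there were.

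The genes nearest to ENPP1 with enough counts to be tested were ENPP3 before it and CCN2 after it. The values of ENPP3 are given as a description, since it was testable only through the resistant libraries. ENPP3, a family member that also hydrolyses nucleotides at the cell surface, starts upstream of ENPP1 and ends 60.6 kb before it. It had 2, 0 and 0 counts in vehicle-treated parental cells and 0 in all oxamate-treated parental libraries, against 91, 73 and 85 counts in vehicle-treated and 71, 77 and 100 counts in oxamate-treated resistant cells. Parental cells were at or below the floor and resistant cells lay between 1.23 and 1.68 CPM, without overlap. Over the pooled groups the ratio with vehicle was 190.0, with an exact 95% interval from 51.9 to 1570 for counting error, and with oxamate ENPP3 was at least 89.7-fold higher, set against 3 counts over the parental group. CCN2, listed under its older symbol CTGF, encodes a matricellular growth factor and lies 53.0 kb after ENPP1. It had 0.735, 0.832 and 0.611 CPM in vehicle-treated and 0.25, 0.286 and 0.275 CPM in oxamate-treated parental cells. In resistant cells it had 6.3, 5.63 and 7.67 CPM with vehicle and 5.88, 6.23 and 6.86 CPM with oxamate, which overlapped each other and lay above all parental values. The log2 fold change between the lines was 3.14 with vehicle (standard error 0.14, adjusted p = 4.78e-12) and 4.54 with oxamate (standard error 0.22, adjusted p = 6e-13, edgeR). Like ENPP1 it was lower in parental cells after oxamate, but here the change of -1.44 was called (adjusted p = 4.26e-05), and the responses of the lines differed by 1.40 (standard error 0.26, adjusted p = 0.000275).

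MED23, a Mediator subunit 179.7 kb before ENPP1, was 0.53 higher with vehicle and 0.77 higher with oxamate on the log2 scale. STX7, an endosomal SNARE 550.7 kb after it, was lower by -0.21 and -0.45, though with library size alone the vehicle value turned to 0.01. The rows of MIR548H5, CTAGE9, OR2A4, MIR548AJ1, LINC01013 and MOXD1, which lie among them, had at most 1 count in any library, so raised genes and genes with next to no reads lay side by side around ENPP1. MIR548H5 and MIR548AJ1 are annotated as microRNAs. The libraries were made from mRNA enriched with oligo(dT), so the counts of these 2 do not show whether they are expressed. The promoters of ENPP3 (chr6:131637052-131637301, plus strand) and CCN2 (chr6:131951373-131951622, minus strand, GRCh38.p14, RefSeq) are printed to set them beside that of ENPP1, with matches on either strand to the TATA box, the CCAAT box and the GC box in capitals.
ENPP3 promoter: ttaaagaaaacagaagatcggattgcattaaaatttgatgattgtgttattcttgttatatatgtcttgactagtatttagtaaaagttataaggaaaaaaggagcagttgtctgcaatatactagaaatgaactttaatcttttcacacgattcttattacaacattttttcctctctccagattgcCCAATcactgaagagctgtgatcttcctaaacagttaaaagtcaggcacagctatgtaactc
CCN2 promoter: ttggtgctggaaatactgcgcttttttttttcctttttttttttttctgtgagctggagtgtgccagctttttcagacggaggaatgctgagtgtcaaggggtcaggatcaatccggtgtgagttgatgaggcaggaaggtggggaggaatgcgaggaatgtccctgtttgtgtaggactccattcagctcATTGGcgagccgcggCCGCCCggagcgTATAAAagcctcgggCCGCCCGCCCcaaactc
The windows had little in common. That of ENPP3 had a GC content of 32.0% with 1 CCAAT box and no GC box, and that of CCN2 53.2% with 1 TATA box, 1 CCAAT box and 3 GC boxes. Among all windows 10.7% held a TATA box and 32.0% a CCAAT box. A match is a description of the letters and does not show a site in use.

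**Figure D4:**
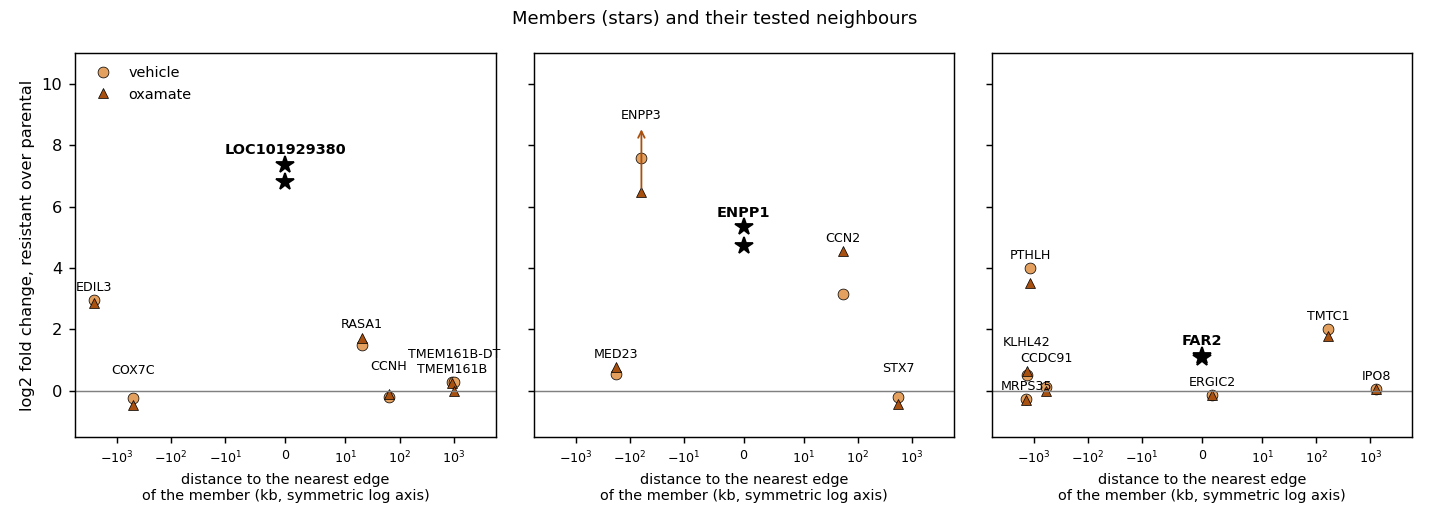
Log2 fold change of resistant over parental cells for the members (stars) and their tested neighbours, with vehicle (circles) and oxamate (triangles), against the distance to the nearest edge of the member in kb on a symmetric log axis. ENPP3 is drawn at its pooled count ratio with vehicle (7.57) and, with an arrow, at its lower bound with oxamate (6.49). In the ENPP1 panel MED23 (0.53 with vehicle) and STX7 (-0.21) are the outer points, and ENPP3 and CCN2 the inner ones.

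The nearest measurable gene to LOC101929380 was also higher. RASA1, a GTPase-activating protein that switches RAS off, begins 19.9 kb after its end. It had 38.4, 39.9 and 39.8 CPM in vehicle-treated and 31.1, 31.2 and 32.1 CPM in oxamate-treated parental cells, and 109, 109 and 110 CPM with vehicle and 104, 106 and 104 CPM with oxamate in resistant cells. The lines did not overlap, and RASA1 was lower after oxamate in parental cells. The log2 fold change between the lines was 1.48 with vehicle (standard error 0.03, adjusted p = 2.83e-16) and 1.73 with oxamate (standard error 0.03, adjusted p = 5.81e-17, edgeR). CCNH, the cyclin of the CDK-activating kinase, shares part of the span of RASA1 on the chromosome and was slightly lower, by -0.21 with vehicle and -0.12 with oxamate, but turned to 0.01 and 0.20 with library size alone. EDIL3, an extracellular matrix protein 2735.3 kb before the member, had 2 to 6 counts in parental and 19 to 26 counts in resistant libraries (log2 fold change 2.94 with vehicle, standard error 0.46). COX7C, a cytochrome c oxidase subunit, was lower by -0.25 and -0.48, and TMEM161B was higher by 0.28 and 0.24. TMEM161B-DT did not pass the test in either treatment, with 0.27 and -0.02.

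Around FAR2 the adjacent gene did not follow it. ERGIC2, a protein of the ER-Golgi intermediate compartment that begins 1.7 kb after FAR2 ends, had a log2 fold change of -0.15 with vehicle and -0.16 with oxamate, which turned to 0.07 and 0.16 with library size alone. TMTC1, an endoplasmic reticulum mannosyltransferase 165.2 kb after FAR2, had 2.35, 2.16 and 2.65 CPM in vehicle-treated and 2.83, 2.95 and 2.69 CPM in oxamate-treated parental cells. In resistant cells it had 9.65, 10.0 and 8.68 CPM with vehicle and 9.49, 10.5 and 9.16 CPM with oxamate, above all parental libraries. Its fold change between the lines was 3.99 with vehicle (log2 2.00, standard error 0.08, adjusted p = 6.09e-12, edgeR), larger in size than that of FAR2 itself. PTHLH, which encodes parathyroid hormone-related protein and lies 1176.5 kb before FAR2, had 0 to 4 counts in parental and 20 to 34 counts in resistant libraries. KLHL42 was higher by 0.52 and 0.64 and MRPS35 lower by -0.27 and -0.32, while IPO8 had 0.04 and 0.06 and did not pass the test. CCDC91 was higher by 0.12 with vehicle and had -0.03 with oxamate.

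**Figure D5:**
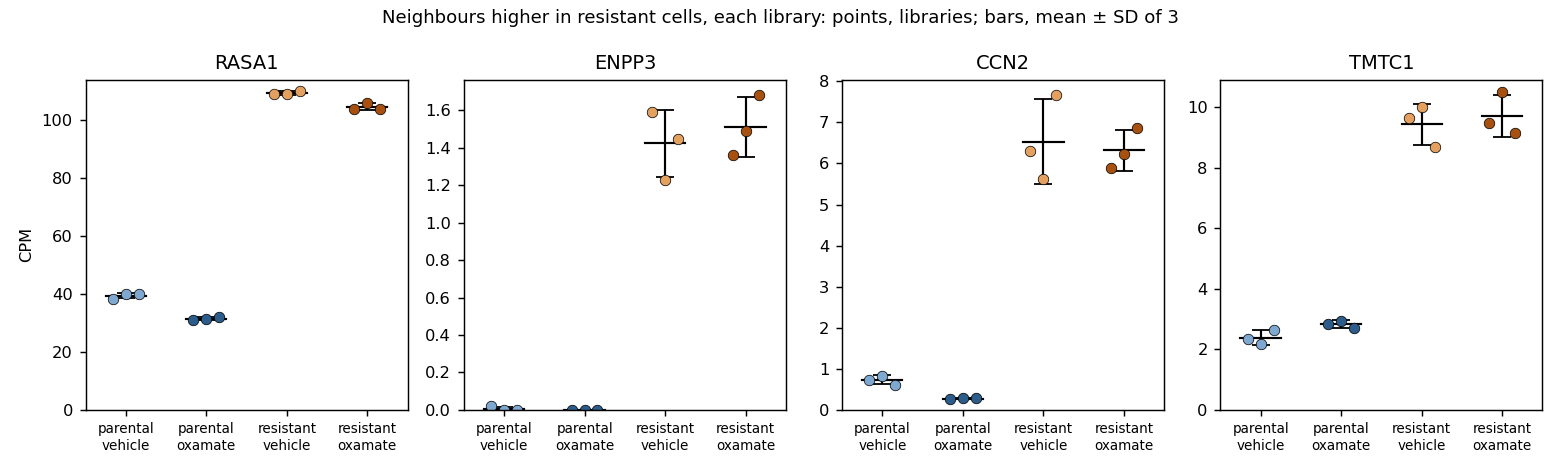
CPM of RASA1, ENPP3, CCN2 and TMTC1 in the 12 libraries; points are libraries and bars the mean ± SD of 3. In each panel every resistant library lies above every parental library, with ENPP3 at 0 in 5 of the 6 parental libraries.

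The lists of pathway genes below are read against 38.4% of all genes tested called higher and 37.3% lower with vehicle, and 40.6% and 39.7% with oxamate. Their balance depended on TMM, since library size alone moved 23 of 36 list counts by over 1.5 times. Of the ENPP family, ENPP2, ENPP4, ENPP5, ENPP6 and ENPP7 had too few counts to be tested, so that ENPP1 and ENPP3 were the 2 measurable members of 7. Of 9 genes for pyrophosphate, phosphate and mineralization 5 were tested, and with vehicle 1 was called higher and 2 lower in resistant cells (median log2 fold change -0.07, against 0.025 for all genes tested). With oxamate 3 were higher and 2 lower (median 0.39, against 0.015), as the phosphate importer SLC20A2 (0.39) and the phosphatase PHOSPHO1 (1.02) were then called too. Both were lower in parental cells after oxamate, SLC20A2 at 26.1 and then 18.5 CPM and PHOSPHO1 at 0.857 and then 0.425 CPM. In resistant cells SLC20A2 had 24.9 and 24.2 CPM and PHOSPHO1 0.891 and 0.867 CPM, with neither change called. The one higher in both treatments was ANKH, which exports ATP and citrate and so sets extracellular pyrophosphate, at 1.45 ± 0.0876 CPM in parental and 7.53 ± 0.282 CPM in resistant cells (SD, n = 3, log2 fold change 2.37, adjusted p = 1.34e-12, edgeR). The phosphate importer SLC20A1 (-0.41) and the phosphate exporter XPR1 (-0.39) were lower with vehicle, and with oxamate as well (-0.77 and -0.41). The phosphatase ALPL, which breaks pyrophosphate down, was not measurable.

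Of 25 genes that handle extracellular nucleotides and adenosine 17 were tested, 6 called higher and 6 lower with vehicle and 6 and 7 with oxamate. Their median log2 fold change was 0.07 with vehicle and -0.05 with oxamate, against 0.025 and 0.015 for all genes tested. The ADP receptor P2RY1 rose from 0.326 ± 0.0457 to 1.35 ± 0.0566 CPM (log2 2.02), and the ATP release channel PANX1 was 0.54 higher. The adenosine transporter SLC29A1 fell from 99.5 ± 1.55 to 59.5 ± 0.563 CPM (log2 -0.74) and the adenosine receptor ADORA1 from 17.0 ± 0.545 to 7.4 ± 0.391 CPM (log2 -1.20). NT5E, the ectonucleotidase that makes adenosine from the AMP that ENPP1 releases, fell from 584 ± 17.5 to 423 ± 9.91 CPM (log2 -0.47).

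Of 14 genes of cGAMP transport and STING signalling 13 were tested, 5 called higher and 6 lower with vehicle and 4 and 7 with oxamate (median -0.03 and -0.08). STING itself, listed as TMEM173, fell from 9.13 ± 0.543 to 4.85 ± 0.218 CPM (log2 -0.92, adjusted p = 8.24e-10, edgeR), while cGAS, listed as MB21D1, had 20 CPM in parental and 19.6 CPM in resistant cells with vehicle and did not pass the test. With oxamate MB21D1 was called lower (log2 -0.12, adjusted p = 0.0168, edgeR), and with library size alone it turned to 0.19 with vehicle and 0.20 with oxamate. The kinase IKBKE rose from 2.69 ± 0.173 to 8.17 ± 0.49 CPM (log2 1.60), and the channel subunits LRRC8C (0.98) and LRRC8A (-0.45) moved in opposite directions. Interferon beta (IFNB1) had 0 counts in every group.

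Of 10 genes of insulin receptor signalling 9 were tested, with 3 called higher and 3 lower in each treatment. PIK3R1, the regulatory subunit of phosphoinositide 3-kinase, rose from 4.7 ± 0.157 to 22.6 ± 0.994 CPM with vehicle (log2 2.27, adjusted p = 3.05e-15, edgeR), and fell in parental cells after oxamate to 2.65 ± 0.181 CPM (log2 -0.82). The receptor adaptor IRS1 was 0.32 higher, and SH2B2 and IRS2 were lower (-0.91 and -0.37).

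The lipid genes linked to FAR2 come next. Of 14 genes of ether lipid synthesis 13 were tested, 5 called higher and 5 lower with vehicle and 5 and 7 with oxamate (median -0.04 and -0.06). FAR1, the other fatty acyl-CoA reductase, rose between the lines from 73.0 ± 3.22 to 93.3 ± 2.11 CPM with vehicle (log2 0.36, adjusted p = 5.33e-08) and from 60.9 ± 1.17 to 93.9 ± 1.73 CPM with oxamate (log2 0.62, adjusted p = 4.45e-11, edgeR). TMEM189, the desaturase that makes plasmalogens, fell from 46.1 ± 1.86 to 25.6 ± 0.276 CPM (log2 -0.85), the choline phosphotransferase CHPT1 was lower (-0.58), and TMEM86A, which degrades lysoplasmalogens, was 1.36 higher. Of 9 acyltransferases for wax esters and neutral lipids 3 were tested, and all 3, SOAT1 (-0.11), DGAT1 (-0.15) and DGAT2 (-0.10), were called lower with vehicle. With library size alone this direction turned for SOAT1 and DGAT1. The vehicle value of DGAT2 under that setting is not given here. The median gene moved from 0.025 to 0.244 with it, so the direction of DGAT2 depends on the scaling too. The wax synthases AWAT1 and AWAT2 had too few counts to be tested.

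Of 17 genes of very long chain acyl-CoA elongation and activation 14 were tested, 2 called higher and 10 lower with vehicle and 3 and 10 with oxamate (median -0.18 and -0.16). With library size alone these counts were 5 and 5 with vehicle and 8 and 5 with oxamate. The elongases ELOVL7 (3.56 ± 0.0516 to 7.71 ± 0.534 CPM, log2 1.12) and ELOVL6 (log2 0.91) were higher, and HACD1 (29.7 ± 0.859 to 16.4 ± 0.451 CPM, log2 -0.86) and TECR (log2 -0.54), which complete the elongation cycle, were lower. Of 6 genes of fatty aldehyde and alcohol oxidation 4 were tested, 1 called higher and 2 lower with vehicle. ALDH3B1 was 0.53 higher, and ALDH3A2, the fatty aldehyde dehydrogenase, was lower by -0.18, which turned to 0.04 with library size alone.

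The genes most like each member over the 12 libraries were found by the root mean square difference of their log2 CPM after each gene was centred on its own mean. For LOC101929380 they were GNG2 (0.298), ITGA1 (0.308), TGFBR2 (0.488), IGFBP5 (0.506) and FN1 (0.637). For ENPP1 they were IKZF2 (0.203), B3GALT5 (0.228), SERPINB7 (0.23), VAV1 (0.253) and SEPP1 (0.285), and for FAR2 they were RASSF2 (0.0654), NUDT11 (0.0713), CD83 (0.0742), SASH1 (0.0748) and GCNT1 (0.0766). By Pearson's r, which ignores the size of the change, ITGA1 again came first for LOC101929380 (0.9988), PTPRK for ENPP1 (0.9987) and UST for FAR2 (0.9956). With 2 lines that differ at most genes a high r is common here: 115, 180 and 58 of 14581 genes had an r over 0.99 with LOC101929380, ENPP1 and FAR2. These values describe libraries that share a line and a treatment, and no test was made of them.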

How the data were processed

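The authors deposited RSEM expected counts per gene symbol, without normalization, for 12 RNA-seq libraries of parental and oxamate-resistant MIAPaCa2 cells. The submitters' processing notes name Bowtie2 2.1.0, RSEM 1.2.15 and hg38. The expected counts were rounded and fitted in R 4.3.3 with edgeR 4.0.16 (filterByExpr, which kept 14582 of 26475 symbols, TMM, glmQLFit and glmQLFTest on 4 group means, all 12 libraries, Benjamini-Hochberg adjustment over all genes tested). Genes were called at an adjusted p under 0.05. Standard errors are those of the fitted group means and were not allowed below the counting error of the summed counts. On simulated counts the difference between responses recovered 90 of 100 genes changed by 1 on the log2 scale, with 7 false calls, among 14413 genes tested. Each simulated gene started in every group from its mean level over the 12 libraries. The recovery therefore does not measure the power for genes near absent in parental cells, or for changes smaller than 1.

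The members and gene lists were chosen with earlier results of these data known. The named genes were the members, their copies and neighbours, per list and direction the called genes with the smallest p, FAR1 and the ENPP family, and for each member the 5 most alike. MALAT1, NEAT1, the cell line markers and the genes of the count on both sides of 1 and 10 CPM lie outside this rule, as do list members given for context (NT5E, MB21D1, IFNB1, ALPL, PHOSPHO1, AWAT1, AWAT2 and the oxamate responses of PIK3R1 and SLC20A2), and were chosen once their values were known. Positions and 250-base promoter windows came from RefSeq (GRCh38.p14). Replicate numbers were not taken to pair the libraries. Deviations of same-numbered libraries correlated with a median r of 0.025 (highest 0.245), against -0.0253 (highest 0.119) for other numbers, which does not exclude a pairing. Replicates differed by more than sampling noise, with a chi-square per degree of freedom of 2.11 to 33.3. The alternatives were RLE factors, library size alone, no filter, unrounded counts, DESeq2 1.42.0, a replicate block, only the groups compared, the study's threshold and each library left out. Leaving out both libraries high in MALAT1 was chosen after seeing the data.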

Additional observations from a re-analysis of the deposited data

Results flagged for a closer look

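For ENPP1 and 6 of the 17 neighbours tested the response to oxamate differed between the lines (edgeR, a test of the difference itself). For ENPP1 the response of resistant cells minus that of parental cells was 0.60 (adjusted p = 0.0155), with all 3 treated libraries below the untreated ones in parental cells and above them in resistant cells. For CCN2 it was 1.40 (adjusted p = 0.000275), and for RASA1 0.26 and MED23 0.23 (adjusted p = 4.55e-05 and 0.00579). It was -0.23 for COX7C, -0.24 for STX7 and -0.15 for CCDC91 (adjusted p = 0.00133, 0.00331 and 0.0278). Over all genes 44.2% were called in this comparison, so the number of neighbours called does not stand out. What lies behind these differences was not tested.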

How the results depend on the processing

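The separation of the members between the lines kept its direction under all alternatives, as their choice on these values made certain. With library size alone LOC101929380 was 7.59 with vehicle and 7.11 with oxamate on the log2 scale, ENPP1 4.93 and 5.64, and FAR2 1.28 and 1.46, moves set by the scaling itself. With both libraries high in MALAT1 left out, the oxamate values were 7.07 for LOC101929380 and 5.38 for ENPP1. With each library left out in turn, LOC101929380 with oxamate ran from 6.66 to 7.07, the highest without the third oxamate-treated parental library.

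The oxamate responses rested on single libraries more often. In resistant cells LOC101929380 ran from -0.26 to -0.19 with each library left out, and ENPP1 from 0.14 to 0.20. ENPP1 was not called there with no filter on low counts (0.15) or with DESeq2 (0.16), and its difference between the responses ran from 0.56 to 0.67 with each library left out and up to 0.71 over all alternatives, with library size alone. In parental cells library size alone made ENPP1 -0.52 and FAR2 -0.19, both then called, and FAR2 ran from -0.17 to -0.08 with each library left out, called at the first value, without the first oxamate-treated parental library (adjusted p = 0.0489). In resistant cells FAR2 ran from -0.08 to 0.00, where it turned without the third oxamate-treated library. The cause of these changes was not tested.

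The study's threshold changed the total of called genes to 1440 in parental cells, 365 in resistant cells, 1237 for the difference, 3407 between the lines with vehicle and 5007 with oxamate. The total in resistant cells, 3139, ran from 1795 to 3391 with each library left out, and was 1850, 1795 and 1886 without the first or second vehicle-treated or the third oxamate-treated resistant library.

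Among the neighbours and the list genes named by the rule, library size alone turned the vehicle difference between the lines for CCNH (0.01), STX7 (0.01), ERGIC2 (0.07), ALDH3A2 (0.04), DGAT1 (0.07) and SOAT1 (0.11). It turned the oxamate difference for CCNH (0.20), TMEM161B-DT (0.30), CCDC91 (0.30), MRPS35 (0.01), ERGIC2 (0.16), DGAT2 (0.04) and SOAT1 (0.15). MB21D1, outside that rule, turned in both treatments, as given above. DGAT2 with vehicle and DGAT1 with oxamate are not covered by this list. With only the groups compared, TMEM161B-DT was 0.01 and CCDC91 0.00 with oxamate, and TMEM161B-DT was 0.08 without both libraries high in MALAT1 and from -0.12 to 0.08 with each library left out. Library size alone also moved 23 of 36 list counts by over 1.5 times.

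The replicate block, a term for the replicate number, changed no call of the members, with ENPP1's difference between responses at 0.61 (adjusted p = 0.0141), and gave 6798 called genes for the difference against 6438. For the oxamate response in resistant cells it gave 3750 called genes against 3139. Genes most like a member by Pearson's r shared 1 of 5 with the main list for LOC101929380 and 0 of 5 for ENPP1 and FAR2. LOC101929380 has 6 to 12 counts in parental libraries, which limits what can be said of its response there.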
